A study of Mus musculus with 12 samples.

Results

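The guide strands of 2 mouse microRNA clusters were followed through fat cell induction and lithium treatment: mmu-miR-23a, mmu-miR-27a and mmu-miR-24 of the miR-23a-27a-24-2 cluster, and mmu-miR-23b, mmu-miR-27b and mmu-miR-24 of the miR-23b-27b-24-1 cluster. They were taken by name from the scanner files of a single-colour Agilent miRNA array and make up 5 of the 611 mouse miRNAs on it. All 5 were detected on all 12 arrays and are among the 157 miRNAs that entered the tests. The cells were 3T3-L1, a mouse fibroblast-like line that accumulates fat when induced in confluent culture. Each of the 4 groups had 3 arrays. Lithium plus MDI cells received both lithium chloride at 25 mM and the MDI induction medium, a mixture of isobutylmethylxanthine, dexamethasone and insulin. MDI cells were given the induction medium for 3 days, insulin for 2 days and plain medium for 2 days, and were taken on day 7. Lithium cells were preadipocytes given lithium chloride at 25 mM, and preadipocytes were the line without either agent. The labels give no schedule for the preadipocytes or for either lithium group, so time in culture may differ along with treatment. The submitters describe MDI as the setting of suppressed WNT signalling and lithium as the setting of activated WNT signalling, and the combined group asks whether lithium-treated cells still differentiate. The labels do not say whether a group's arrays stem from different cultures; p-values therefore describe array-to-array spread, part of which may be technical.

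Each cluster is transcribed as a single precursor from which a miR-23, a miR-27 and a miR-24 hairpin are cut, and 1 strand of each hairpin, the guide, is loaded into the silencing complex. The guide pairs with messenger RNAs mainly through its seed, the bases near its 5′ end. Both miR-27 paralogs can repress Pparg, the nuclear receptor that drives fat cell differentiation, and raised miR-27 is known to hinder differentiation of 3T3-L1 cells. The miR-23 guides are known to repress glutaminase in human cells, and miR-24 is known to repress cell cycle regulators, MYC among them, in human cells.

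The mature sequences show which of the 5 guides share a seed, and which the array could tell apart by locus. They come from RefSeq (GRCm38.p6), where 4 of the 5 guides were matched. Capitals mark the seed, bases 2 to 8 from the 5′ end.
miR-23a: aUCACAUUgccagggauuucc
miR-27a: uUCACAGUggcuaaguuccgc
miR-27b: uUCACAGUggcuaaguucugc
miR-24: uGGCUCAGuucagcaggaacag
miR-24-2*: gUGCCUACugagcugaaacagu
miR-24-1*: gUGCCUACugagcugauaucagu
MiR-27a and miR-27b have the same seed, and no other of the 1738 mature mouse entries in the table carries it. Over their 21 bases they differ only by C19U, with positions counted from the 5′ end and the miR-27a base first. With so small a difference a probe for one paralog may also have bound the other, which was not tested. The seed of miR-23a differs from that of miR-27a by U7G. Mature miR-24 is identical from both loci, so the array gives 1 value for their sum. The opposite strands, miR-24-2* and miR-24-1*, share a seed and differ towards their 3′ ends, and are shown because they are the products that could separate the miR-24 loci.

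The first cluster lies on the plus strand at chr8:84208518-84208921 (GRCm38.p6), 404 bases that no gene of the RefSeq table spans. Within it mature miR-23a occupies chr8:84208563-84208583, miR-27a chr8:84208727-84208747 and miR-24 chr8:84208875-84208896. The second cluster covers 792 bases, also on the plus strand, at chr13:63300484-63301275, inside the bounds of Aopep, an aminopeptidase gene. Mature miR-27b occupies chr13:63300760-63300780 and the second copy of miR-24 chr13:63301251-63301272.

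Values are log2 of an array's spot intensity divided by that array's 75th percentile over 181 mouse probes detected on every array, so 0 stands for a signal equal to that percentile. Arrays detected 126 to 177 mouse miRNAs each, and no mouse spot was saturated. The percentile was 265 to 477 intensity units in the lithium plus MDI group, 264 to 382 in MDI, 316 to 414 in lithium and 503 to 780 in preadipocytes, so the preadipocyte arrays were the brightest before scaling. Slide 1 held the 3 preadipocyte arrays and MDI array 1, and slide 2 held the other arrays, so slide cannot be told apart from group where either lithium group is set against preadipocytes. For 6 of the 12 arrays the mean correlation with some other group exceeded that with the array's own. Preadipocyte array 3, lithium array 1 and lithium plus MDI array 3 stood apart most from their groups, and values without them stand beside the limma results they change. Preadipocyte array 3 had a mean correlation of 0.957 with lithium and 0.939 with its own group. Lithium array 1 had 0.960 with MDI and 0.942 with its own. Lithium plus MDI array 3 had 0.965 with preadipocytes and 0.924 with its own. Whether any arrays were exchanged was not tested. Of 6 mesenchymal marker miRNAs, 6 were detected, although miR-145 was detected on only 8 arrays and was weak, with group means from -4.87 to -4.08. Of 21 markers of epithelium, muscle, blood, neural tissue, liver and endothelium, 19 were detected on no array, miR-205 was detected on 3 and miR-128 on 7. Fewer cells with a miRNA and less of it per cell cannot be told apart in such samples.

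MiR-27a was the guide with the clearest separation of groups. It measured 2.38, 2.04 and 2.50 in lithium plus MDI cells, 2.12, 1.72 and 1.77 in MDI cells, 1.77, 1.55 and 1.55 in lithium cells, and 0.94, 1.06 and 1.01 in preadipocytes. Each of the 9 treated arrays lay above all 3 preadipocyte arrays as scaled here. Unscaled, preadipocytes (961 to 1567) overlapped lithium plus MDI (1381 to 2702), MDI (1150 to 1257) and lithium cells (1082 to 1208). Taken pair by pair, groups did not overlap, with the treated group higher, for 14.0% of tested miRNAs in lithium plus MDI, 15.9% in MDI and 17.2% in lithium. The share with all treated arrays above the preadipocytes was not counted. The group means ± SD (n = 3 each) were 2.31 ± 0.24 in lithium plus MDI cells, 1.87 ± 0.22 in MDI cells, 1.62 ± 0.13 in lithium cells and 1.00 ± 0.06 in preadipocytes. In the order of these means, lithium plus MDI and MDI overlapped, MDI and lithium overlapped, and the preadipocytes stood clear below. In limma's moderated F test over the 4 groups, miR-27a ranked 3 of 157 with an adjusted p of 0.0333. It was the only one of the 5 guides past the threshold of 0.05, which 6.37% of the tested miRNAs passed, and the adjusted p of the other guides lay between 0.173 and 0.360. The F test of miR-27a no longer passed under 7 of 17 alternatives: limma's adjusted p was 0.958 with normexp background correction, 0.514 with the percentile of all mouse probes, 0.156 without scaling, 0.0655 with slide as a block, 0.0618 with slide as a random block, 0.0566 in the authors' value table and 0.0521 without a floor. It was also lost without any 1 of 6 arrays (adjusted p up to 0.109, without preadipocyte array 2). Without scaling the other 4 guides passed the F test, as 63 of all tested miRNAs did. Without the 3 arrays that stood apart all 5 guides passed (limma's adjusted p from 0.00209 to 0.00531), as 104 of all tested miRNAs did.

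**Figure D1:**
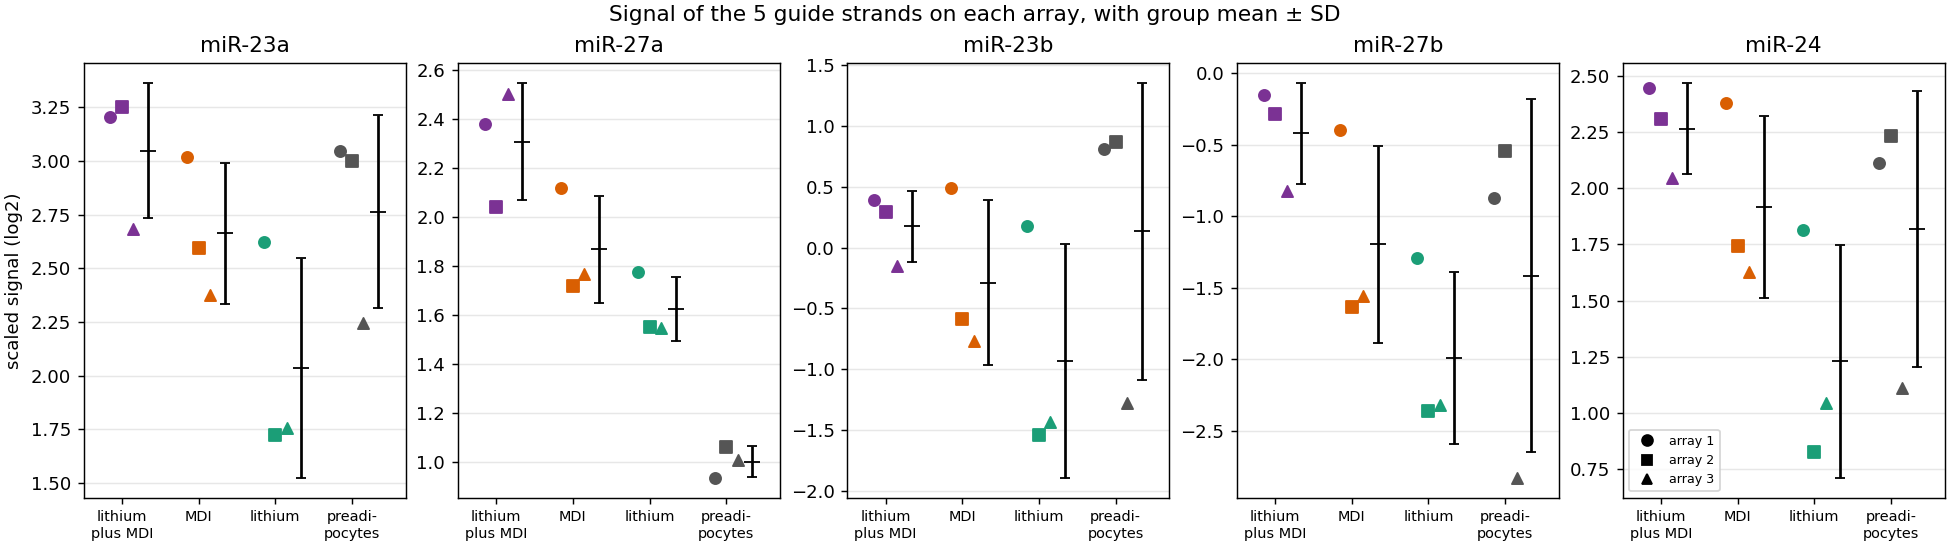
Scaled signal (log2) of each guide on each of the 12 arrays, with lithium plus MDI, MDI, lithium and preadipocytes from left to right in every panel. Symbols mark the array number, which was not used to pair arrays between groups, and bars give the group mean ± SD (n = 3). MiR-27a in preadipocytes lies between 0.94 and 1.06, below all treated arrays, while preadipocyte array 3 lies far below its companions for miR-23b, miR-27b and miR-24.

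The partner of miR-27a in its precursor, miR-23a, did not share this order. It was the brightest of the 5 probes, at 3.21, 3.25 and 2.68 in lithium plus MDI cells, 3.02, 2.59 and 2.38 in MDI cells, 2.62, 1.72 and 1.76 in lithium cells, and 3.05, 3.00 and 2.24 in preadipocytes. Preadipocytes overlapped every other group, and the lowest values were those of lithium arrays 2 and 3. Group means were 3.05 ± 0.32 for lithium plus MDI, 2.66 ± 0.33 for MDI, 2.04 ± 0.51 for lithium and 2.76 ± 0.45 for preadipocytes.

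MiR-24, the remaining product of both precursors, had nearly the same profile as miR-23a. Its values were 2.44, 2.31 and 2.04 in lithium plus MDI cells, 2.38, 1.74 and 1.63 in MDI cells, 1.81, 0.83 and 1.04 in lithium cells, and 2.11, 2.23 and 1.11 in preadipocytes. The lithium group was again low on arrays 2 and 3, and preadipocyte array 3 lay among the lithium arrays. Group means were 2.26 ± 0.20 for lithium plus MDI, 1.91 ± 0.40 for MDI, 1.23 ± 0.52 for lithium and 1.82 ± 0.61 for preadipocytes.

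The guides of the second cluster were dimmer and spread more within groups. MiR-23b measured 0.39, 0.29 and -0.16 in lithium plus MDI cells, 0.49, -0.59 and -0.77 in MDI cells, 0.18, -1.54 and -1.44 in lithium cells, and 0.81, 0.86 and -1.28 in preadipocytes. In 3 of the groups 1 array stood apart by more than 1 log2 unit from both others, and all 4 groups overlapped. MiR-27b measured -0.15, -0.29 and -0.82 in lithium plus MDI cells, -0.40, -1.63 and -1.56 in MDI cells, -1.29, -2.36 and -2.32 in lithium cells, and -0.87, -0.54 and -2.83 in preadipocytes. Preadipocyte array 3 gave the lowest miR-27b value of all 12 arrays, and every lithium plus MDI array lay above every lithium array. The SD within groups was 0.29 to 1.22 for miR-23b and 0.35 to 1.24 for miR-27b, against 0.06 to 0.24 for miR-27a.

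Lithium plus MDI against preadipocytes gave the 1 call among the guides. MiR-27a rose 2.47-fold, by 1.31 on the log2 scale (SE 0.23, 95% interval 0.80 to 1.81, limma's adjusted p = 0.0133), which was the smallest p of the 157 miRNAs. That is 1 guide of 5, where 1.27% of all tested miRNAs passed in this comparison. Its groups did not overlap, as was so, with the combined group higher, for 14.0% of all tested miRNAs. The other guides were also higher in lithium plus MDI cells, by 1.00 for miR-27b (adjusted p = 0.377), 0.45 for miR-24 (0.497), 0.29 for miR-23a (0.603) and 0.04 for miR-23b (0.973) by limma, none past the threshold. Over all tested miRNAs the median difference was 0.30 and 67.5% of differences were above 0. The second probe of miR-27a, dimmer and of its own 10 spots, gave 1.46 where the probe used here gave 1.31.

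The size of this difference depended on how arrays were scaled. Unscaled, the miR-27a intensities were 1381, 1632 and 2702 in lithium plus MDI cells and 961, 1202 and 1567 in preadipocytes, which overlap. Without scaling the log2 difference was 0.58 (limma's adjusted p = 0.168) where the median over the tested miRNAs fell at -0.33. Scaled to the percentile of all mouse probes it was 0.26 (adjusted p = 0.575), with a median of -0.65. Less the median of all tested miRNAs, the difference was 1.01 as scaled here, 0.92 unscaled and 0.91 with all mouse probes. A scaling factor shifts all miRNAs of an array alike, apart from values at the floor, so these values are close by construction. Over 7 ways of scaling or summarising, the difference less the median ran between 0.91 and 1.68. With slide as a block, which rests on MDI array 1, the difference was 1.68 (adjusted p = 0.0535), and with slide as a random block 1.36 (0.0272). The call was lost without preadipocyte array 1 (1.27, adjusted p = 0.0723) and without lithium plus MDI array 1 (1.27, 0.0990). It was also lost with normexp background correction (1.41, 0.359), in the authors' value table (1.24, 0.0688) and in a fit to the 2 groups alone (1.31, 0.149). With the 3 outlying arrays left out miR-27a passed at 1.21 (limma's adjusted p = 0.00572), as 38 of all tested miRNAs did, and the miR-23b difference was -0.50.

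MDI against preadipocytes was the comparison that asks about fat cell induction alone. MiR-27a was 1.82-fold higher in MDI cells, by 0.87 (SE 0.23, limma's adjusted p = 0.0595), and did not pass, with no overlap between the groups. None of the 5 guides passed, where 3.18% of tested miRNAs did, and 15.9% of them had groups that did not overlap with MDI higher. The remaining guides differed by 0.22 (miR-27b), 0.10 (miR-24), -0.10 (miR-23a) and -0.42 (miR-23b), with 95% intervals that all held 0. For miR-23a that interval was -0.82 to 0.61. The call depended on the processing: miR-27a passed under 10 of 19 alternatives, quantile normalization (1.06, limma's adjusted p = 0.0115) and the authors' value table (1.03, 0.0400) among them, and without lithium plus MDI array 2 or 3 (0.0398 and 0.0184), which enter only through the shared spread. Of all tested miRNAs, 9 passed with quantile normalization, 15 in the authors' table, and between 0 and 18 with 1 array left out. Without the 3 arrays that stood apart miR-27a passed at 0.87 (limma's adjusted p = 0.0135) and miR-23b at -1.13 (0.0301), where 38 of all tested miRNAs passed. On slide 1 alone, which holds a single MDI array beside the preadipocytes, the miR-27a difference was 1.12. Without scaling the miR-27a difference was -0.03, beside a median of -0.70 for all tested miRNAs, and the unscaled intensities in MDI cells were 1150, 1257 and 1168.

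For lithium against preadipocytes miR-27a had the opposite sign to the other guides as scaled here. The sign of miR-27a turned with scaling, and the signs of miR-23b, miR-24 and miR-27b turned with the slide block. MiR-27a was higher in lithium cells by 0.62 (SE 0.23, limma's adjusted p = 0.124) with no overlap between groups, as was so for 17.2% of tested miRNAs with lithium higher, while miR-23a was lower by 0.73 (0.209), miR-23b by 1.07 (0.296), miR-24 by 0.59 (0.329) and miR-27b by 0.57 (0.544). None of these 5 passed, where 6.37% of tested miRNAs did, and the median over all tested was -0.07. Differences below 0 made up 54.8% of all tested miRNAs. Unscaled, the miR-27a difference was -0.068, and it was -0.27 when every mouse probe entered the percentile. Under both settings miR-23a, miR-23b, miR-24 and miR-27b were past the threshold and lower in lithium cells, at -1.42 for miR-23a without scaling, beside a median of -0.69 for all tested miRNAs. Of the 157 tested, 67 were past the threshold and lower without scaling, and 74 with all mouse probes. With slide as a block the differences of miR-23b (0.094), miR-24 (0.11) and miR-27b (0.62) were above 0. MiR-27a passed under 5 of 18 alternatives. Quantile normalization was among them, at 0.87 (limma's adjusted p = 0.0108), where 22 of all tested miRNAs passed. Without preadipocyte array 3, miR-23b passed at -1.77 (limma's adjusted p = 0.0292), as 33 of all tested miRNAs did. Without the 3 arrays that stood apart, miR-23a (-1.28), miR-23b (-2.33), miR-24 (-1.23) and miR-27b (-1.63) passed, as 83 of all tested miRNAs did, and miR-27a stood at 0.55 (limma's adjusted p = 0.0600).

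Lithium plus MDI against lithium gave a positive difference for all 5 guides. The guides were higher in lithium plus MDI cells by 1.57 (miR-27b), 1.11 (miR-23b), 1.04 (miR-24), 1.01 (miR-23a) and 0.68 (miR-27a), with limma's adjusted p from 0.0788 to 0.211. None passed, and 0% of all tested miRNAs did. At an unadjusted p under 0.05, 4 of the 5 guides and 30.6% of all tested miRNAs were counted, and the same 4, all but miR-23b, had groups that did not overlap with the combined group higher, as 26.1% of all tested miRNAs had. A difference above 0 was also common, at 71.3% of tested miRNAs with a median of 0.39. All arrays of both groups were on slide 2. A fit to that slide alone gave miR-27b an adjusted p of 0.0286 by limma, where 15 of all tested miRNAs passed. Leaving out lithium array 1 or preadipocyte array 3 also brought miR-23a, miR-24 and miR-27b past the threshold (limma's adjusted p from 0.0391 to 0.0481). With 1 array left out at a time, between 0 and 38 of all tested miRNAs passed in this comparison. Among 19 further alternatives, miR-27a and miR-27b passed under 3 each, miR-23a and miR-24 under 2 each and miR-23b under 1. Without the 3 arrays that stood apart, all 5 guides passed, with miR-27b at 2.12 and miR-27a at 0.66, and 88 of all tested miRNAs passed as well. Those arrays were picked by their correlations, which makes the remaining groups tighter by construction.

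Lithium plus MDI against MDI, the comparison for lithium added to induction, gave differences of 0.78 (miR-27b), 0.46 (miR-23b), 0.44 (miR-27a), 0.39 (miR-23a) and 0.35 (miR-24). None passed in limma (adjusted p 0.781 to 0.912), as 0% of all tested miRNAs did, and 72.6% of tested miRNAs were higher in the combined group. At an unadjusted p under 0.05 the count was 0 of the 5 guides and 3.82% of all tested miRNAs. The 95% intervals held 0 and reached 0.94 for miR-27a and 1.95 for miR-27b, so differences of up to these sizes were not excluded.

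The interaction compares the MDI difference in the presence of lithium with the MDI difference in its absence. It was 1.53 for miR-23b, 1.35 for miR-27b, 1.11 for miR-23a and 0.94 for miR-24, and -0.18 for miR-27a. No guide passed in limma (adjusted p 0.194 to 0.773), and 0% of all tested miRNAs did. At an unadjusted p under 0.05, miR-23a alone of the guides was counted, beside 22.3% of all tested miRNAs. Without preadipocyte array 3 the interaction passed for miR-23b (2.24, limma's adjusted p = 0.0436) and miR-27b (2.06, 0.0354), as for 26 of all tested miRNAs. Unscaled, or with the 3 outlying arrays left out, it passed for all guides but miR-27a (limma's adjusted p up to 0.0162 and up to 0.00525), beside 61 and 69 of all tested miRNAs. With the percentile of all mouse probes it passed for miR-23a (1.77, limma's adjusted p = 0.0463), beside 20 of all tested miRNAs.

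**Figure D2:**
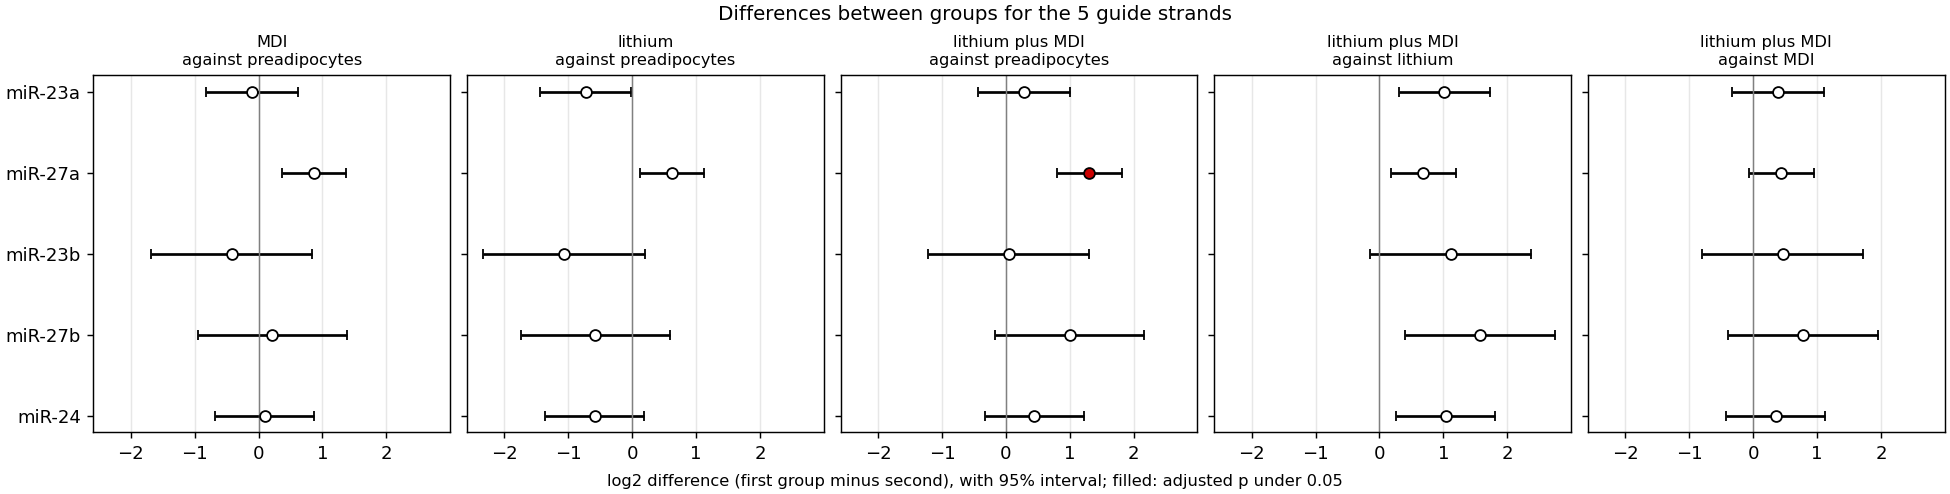
Log2 difference (first-named group minus second) of each guide in 5 comparisons, with the 95% interval of limma's fit to 12 arrays. The filled point marks an adjusted p under 0.05, which miR-27a reached in lithium plus MDI against preadipocytes at 1.31; the intervals of miR-23b and miR-27b are the wide ones.

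A difference between 2 guides of 1 array does not depend on the factor by which that array was scaled (quantile normalization uses no single factor), and a change in it between groups shows unequal change of the 2 signals. It does not take off a slide effect that differs between 2 probes, and the permutation test used here took no account of slide. The level of such a difference has no meaning, since each probe has its own brightness. MiR-27a minus miR-23a, partners in 1 precursor, was -0.83, -1.21 and -0.18 in lithium plus MDI cells, -0.90, -0.88 and -0.61 in MDI cells, -0.85, -0.17 and -0.21 in lithium cells, and -2.11, -1.94 and -1.24 in preadipocytes. Every treated array lay above the preadipocytes, although lithium plus MDI array 2 did so narrowly. In an exact permutation test over the 369600 assignments of 12 arrays to the groups, p was 0.0191, and 0.0477 after adjustment over 5 such differences. Against preadipocytes the change was 1.02 in lithium plus MDI cells, 0.97 in MDI cells and 1.35 in lithium cells, each with an exact p of 0.1, the smallest that 3 arrays against 3 allow.

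The partners of the second precursor moved apart in the same direction. MiR-27b minus miR-23b was -0.55, -0.58 and -0.66 in lithium plus MDI cells, -0.89, -1.05 and -0.79 in MDI cells, -1.47, -0.82 and -0.88 in lithium cells, and -1.69, -1.41 and -1.55 in preadipocytes. The combined group lay above all other arrays, and lithium array 1 lay among the preadipocytes. The exact permutation p was 0.005, and 0.025 after adjustment over the 5 differences. Against preadipocytes the change was 0.95 in lithium plus MDI cells, 0.64 in MDI cells and 0.49 in lithium cells, and the last of these overlapped (exact p = 0.2). The spread of this difference in preadipocytes was 0.14 (SD, n = 3), although miR-23b alone had an SD of 1.22 there and miR-27b of 1.24.

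**Figure D3:**
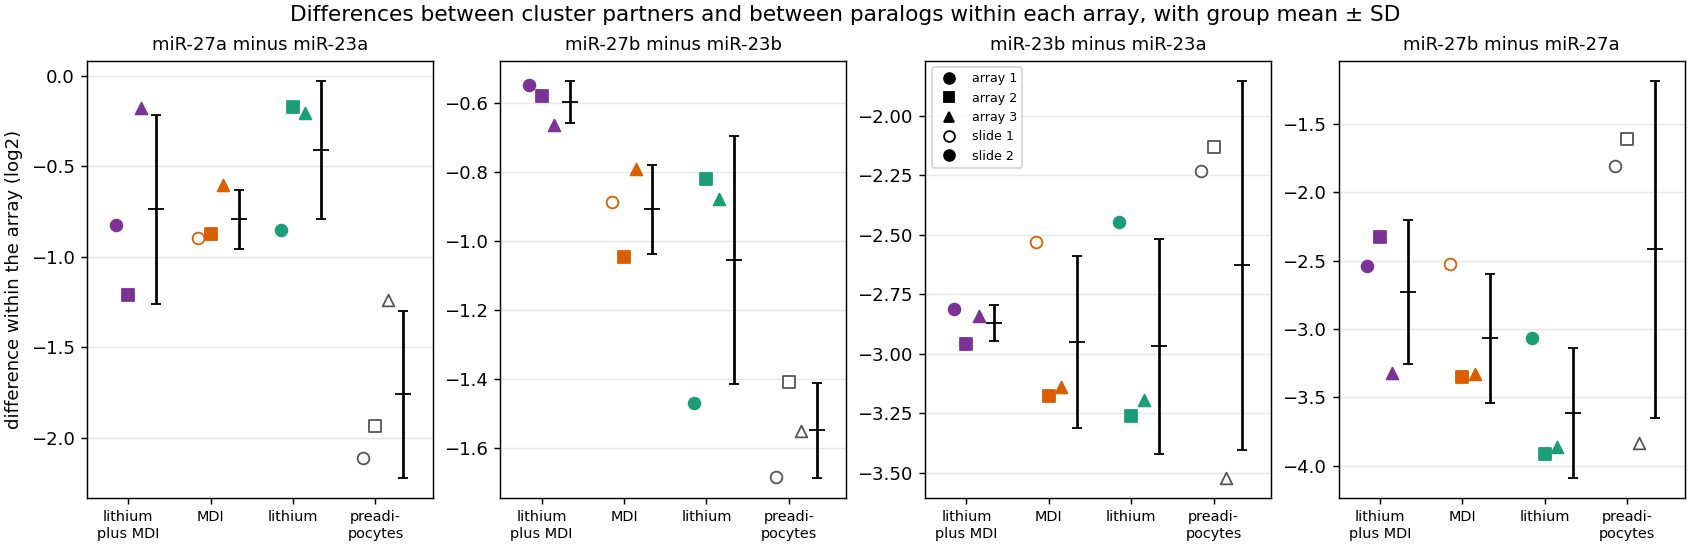
Differences between 2 guides within each array (log2), by group, for the partners of each precursor and for the paralogs between precursors. Open symbols are arrays of slide 1, filled symbols are arrays of slide 2, and bars are the group mean ± SD (n = 3). For miR-27a minus miR-23a all preadipocyte arrays lie at -1.24 or below and all treated arrays above them; the paralog differences overlap between groups.

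Both within-array results missed the threshold with normexp and in the authors' value table. The normexp setting also took another spot signal and added an offset, so the share of background correction was not tested. With normexp on the median spot signals the adjusted exact permutation p was 0.116 for miR-27a minus miR-23a and 0.892 for miR-27b minus miR-23b, and with the authors' value table it was 0.0516 and 0.0674. With 1 array left out at a time, which also leaves fewer assignments, the first passed without preadipocyte array 3, lithium array 1 and lithium plus MDI arrays 2 and 3 (adjusted p from 0.0343), and missed without each of the other 8 (up to 0.127, without preadipocyte array 1). The second missed without preadipocyte arrays 1 and 2, MDI arrays 1 and 3 and lithium plus MDI array 1 (up to 0.117), and passed without each of the other 7. On slide 1, MDI array 1 had -0.90 for the first difference and -0.89 for the second, above the 3 preadipocyte arrays of that slide in both.

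The paralog differences did not pass this test with all 12 arrays. MiR-23b minus miR-23a averaged -2.87 in lithium plus MDI cells, -2.95 in MDI cells, -2.97 in lithium cells and -2.63 in preadipocytes (exact permutation p = 0.806). MiR-27b minus miR-27a averaged -2.73, -3.07, -3.61 and -2.42 in lithium plus MDI, MDI, lithium and preadipocytes (exact permutation p = 0.321, adjusted 0.401), with preadipocyte array 3 at -3.84 and its companions at -1.81 and -1.61. Without that array the adjusted exact permutation p was 0.0383. MiR-24 minus the mean of the other 4 guides ranged between 0.98 and 1.32 over all arrays (exact permutation p = 0.0534, adjusted 0.0890).

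The likeness of profiles was measured as the root mean square difference of log2 values over the 12 arrays after each miRNA's own mean was taken off, which is small for like profiles. MiR-23a and miR-24 were nearest to each other of all tested miRNAs, at 0.14, followed for miR-23a by let-7d (0.15), miR-28 (0.20) and miR-31 (0.21). MiR-24 was next nearest to miR-31 (0.15), miR-28 (0.19) and let-7d (0.23). The median distance from miR-23a to all others was 0.53. MiR-23b was nearest to miR-31 (0.38) and then to its partner miR-27b (0.38), with let-7e and miR-222 as the next non-members, and miR-27b to miR-31 (0.35), miR-24 (0.37) and miR-23b (0.38), with miR-342-3p and miR-28 after them.

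MiR-27a had other miRNAs nearer to it than any of the guides by this measure. Its nearest miRNAs were miR-143 (0.33), miR-298 (0.34) and miR-29c (0.35). Of the 156 others, miR-24 came at rank 52 (0.56) and its partner miR-23a at rank 68 (0.60). Its seed-sharing paralog miR-27b came at rank 121 (0.76) and miR-23b at rank 139 (0.92). The median distance from miR-27a to all others was 0.63, so miR-24 and miR-23a lay nearer than that. The values share arrays and scaling, so the distances are descriptions of these 12 arrays.

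The passenger strands were near or below background. MiR-24-2* was detected on 10 of 12 arrays and averaged -3.93 ± 0.65 in lithium plus MDI cells, -4.46 ± 0.43 in MDI cells, -4.76 ± 0.18 in lithium cells and -4.71 ± 0.23 in preadipocytes (n = 3 each, 2 values at the floor of -4.97). It differed by 0.83 between lithium plus MDI and lithium cells, with limma's adjusted p at 0.135, and did not pass in any comparison. MiR-24-1* was well above background on 1 array, lithium plus MDI array 3, and miR-27a* and miR-27b* on none. MiR-24-2* is the passenger of the hairpin in the miR-23a cluster, and which locus mature miR-24 came from was not tested.

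Other miRNAs with reported roles in fat cell differentiation were counted beside the guides. Of 4 further miRNAs that target Pparg, miR-130a and miR-301a were tested and neither passed in any comparison; miR-301a had the larger differences, at 1.81 for lithium plus MDI against lithium (limma's adjusted p = 0.0728) -1.43 for lithium against preadipocytes (0.111) and 2.36 for the interaction (0.0797). A list of 13 reported inhibitors also holds miR-130a; 8 of the 13 were tested, miR-130a included, and miR-155 fell in lithium cells against preadipocytes by 1.42 on the log2 scale (limma's adjusted p = 0.0382), the 1 call among them, where 6.37% of all tested miRNAs passed. In the other comparisons the largest difference was that of miR-155 for MDI (-1.04) and for the combined group (-0.52) against preadipocytes, of miR-221 for the combined group against lithium (1.05) of miR-222 for the combined group against MDI (0.53), and of miR-155 for the interaction (1.94). Of 23 reported promoters 17 were tested and 0 passed in any comparison by limma. The largest difference among these was -1.76 for miR-146b in lithium plus MDI against lithium (limma's adjusted p = 0.161). MiR-210, a hypoxia-induced miRNA, had the largest of MDI (-1.58, limma's adjusted p = 0.0614) and of the combined group (-1.55, 0.113) against preadipocytes. In the remaining comparisons it was miR-30a for lithium against preadipocytes (0.91), miR-30c for the combined group against MDI (0.84) and miR-320 for the interaction (adjusted p = 0.101). In lithium plus MDI against preadipocytes the median difference was 0.31 for the Pparg list, 0.22 for the inhibitors and 0.38 for the promoters, against 0.30 for all tested miRNAs.

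**Figure D4:**
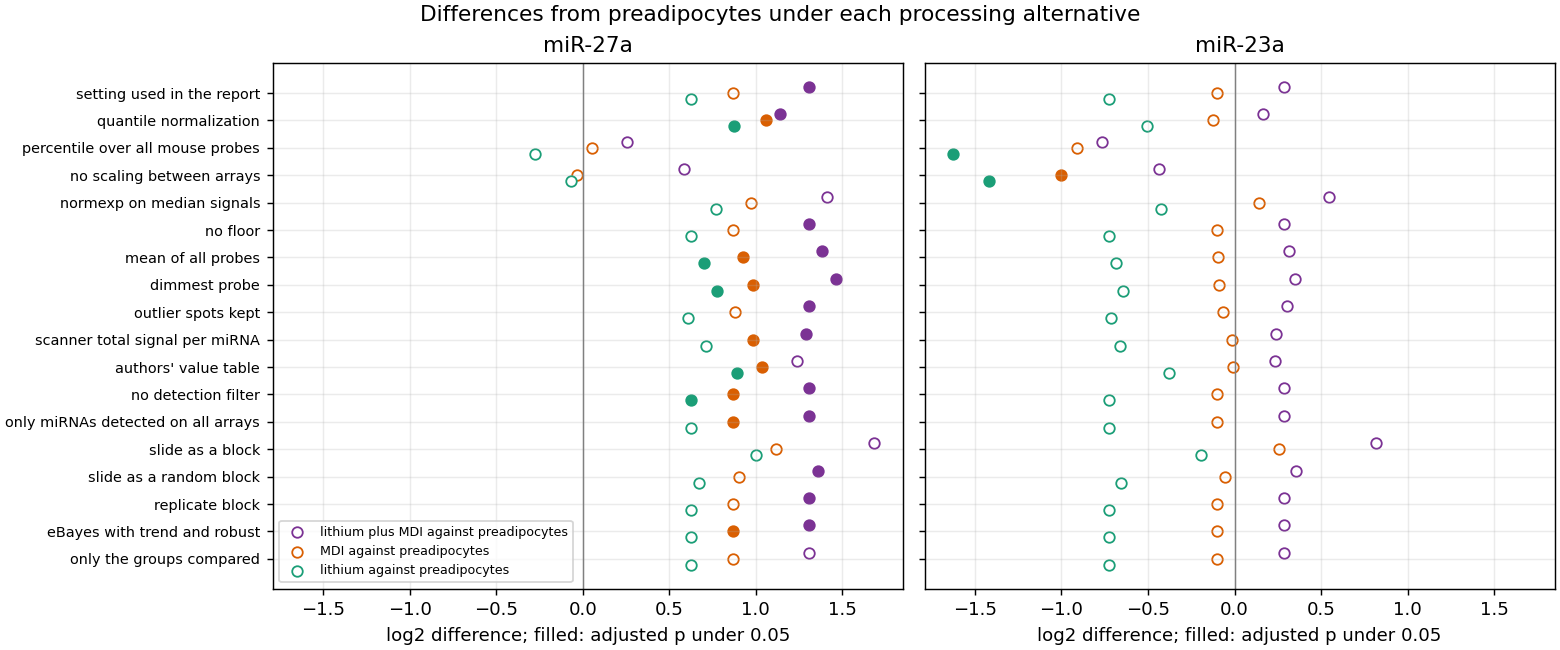
Log2 difference from preadipocytes of miR-27a and miR-23a (x axis) under each way of processing the arrays (y axis), for lithium plus MDI, MDI and lithium cells; filled points have an adjusted p under 0.05. For miR-27a the combined group stays above 0 throughout, between 0.26 and 1.68, and the points shift left together for both miRNAs where arrays were not scaled or were scaled to all mouse probes.

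The plot of processing alternatives sets the precursor partners side by side. Under every setting drawn, the miR-27a difference of a group lay to the right of its miR-23a difference, by 1.02 for lithium plus MDI against preadipocytes as scaled here. Settings that change only the scaling factor or the detection filter leave this gap the same by construction.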

How the data were processed

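Total RNA was labelled with Cy3, 0.5 ug per array, and hybridised to single-colour Agilent miRNA arrays, per the labels' protocols. The deposited spot intensity values came background-subtracted from Agilent Feature Extraction, with no normalization between arrays, per the file headers, which name version 10.5.1.1, where the submitters' processing notes name 9.5.3. The authors also deposited a table read here as log2 values (r of at least 0.996 with the log2 total signal of each array). Its steps are not given in the sources used here, and it served only as an alternative.

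Outlier spots were left out, spots of a probe averaged, arrays scaled to the 75th percentile of the 181 mouse probes detected throughout, a floor set at the 5th percentile of detected values (-4.97), and log2 taken. A probe was detected when over 50% of the spots kept were well above background. The brightest probe stood for a miRNA, and the 157 miRNAs detected on every array of some group were tested. Groups were compared in limma 3.58.1 (R 4.3.3; 4 group means, 12 arrays, two-sided moderated test, Benjamini-Hochberg over 157, threshold 0.05). Within-array differences were tested by two-sided exact permutation (Python 3.11.15, numpy 2.4.6, pandas 2.3.3), and figures drawn with matplotlib 3.10.9. Both tests were tested on simulated data. The number of arrays limits the precision, with a median SE of 0.335 for a difference between groups and 0.474 for the interaction.

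The members and the lists were chosen with earlier results of these data known. Named miRNAs were the 5 guides, their passenger strands, the 3 nearest profiles of each guide, and from each list the members past the threshold or else the one with the largest difference. The alternatives were other scaling, background correction (normexp with an offset of 50, on gMedianSignal because these files have no gMeanSignal column), floor, detection filter, probe choice, source table, slide and replicate blocks, and arrays left out. The normexp column and the within-array differences without the 3 arrays that stood apart were chosen after seeing the data.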

Additional observations from a re-analysis of the deposited data

How the results depend on the processing

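Over all guides, comparisons and alternatives, 1055 values were recomputed, those of the F test included. The F test has no direction, so its values were judged by the threshold alone. Of the 1055 values, 921 kept their side of the threshold and, outside the F test, their direction. A further 71 passed only under the alternative, 21 no longer passed and 42 changed sign. Of these sign changes 1 was past the threshold: miR-24 for MDI against preadipocytes without scaling (-0.80, limma's adjusted p = 0.0296). The causes of the changes listed here were not tested. These values are limited by the slides, the scaling, the number of arrays (3 a group) and the signal over background; all 5 guides were above background throughout, and arrays hold no counts.

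Sign changes for MDI against preadipocytes were 0.14 for miR-23a with normexp and 0.26 on slide 1 alone and with slide as a block, 0.35 for miR-23b in those same 2 slide fits, -0.72 for miR-24 and -0.59 for miR-27b with the percentile of all mouse probes, -0.033 for miR-27a and -0.68 for miR-27b without scaling, and -0.26 for miR-24 and -0.49 for miR-27b without the 3 arrays that stood apart. For lithium against preadipocytes they were -0.27 for miR-27a with the percentile of all mouse probes and -0.068 without scaling, and 0.094 for miR-23b, 0.11 for miR-24 and 0.62 for miR-27b with slide as a block. For lithium plus MDI against preadipocytes miR-23b was -0.13 with quantile normalization, -1.01 with all mouse probes, -0.68 without scaling, -0.0056 with the dimmest probe, -0.028 with the total signal, -0.18 in the authors' table and -0.50 without the 3 arrays. In the same comparison miR-23a was -0.76 and -0.44, and miR-24 was -0.60 and -0.28, with all mouse probes and without scaling, and miR-27b was -0.054 with all mouse probes. For lithium plus MDI against MDI miR-24 was -0.15 with quantile normalization. The interaction of miR-27a was 0.48 with all mouse probes and 0.68 without scaling. With 1 array left out at a time, MDI against preadipocytes ran from -0.36 to 0.043 for miR-23a, -0.26 to 0.30 for miR-24 and -0.49 to 0.65 for miR-27b, and lithium plus MDI against preadipocytes from -0.66 to 0.41 for miR-23b.

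The number of miRNAs past the threshold over all tested also moved with the processing. For MDI against preadipocytes it was 5, and 9 with quantile normalization, 48 with the percentile of all mouse probes, 62 with no scaling, 0 with normexp, slide as a block or slide as a random block, 15 with the total signal or the authors' table, 38 with the 3 arrays that stood apart left out and 11 with only the groups compared or slide 1 alone, and ran from 0 to 18 with 1 array left out. For lithium against preadipocytes it was 10, and 22 with quantile normalization, 78 with the percentile of all mouse probes, 74 with no scaling, 0 with normexp, 21 with the authors' table, 3 with only miRNAs detected on all arrays, 5 with slide as a block and 83 with the 3 arrays that stood apart left out, and ran from 2 to 33 with 1 array left out. For lithium plus MDI against preadipocytes it was 2, and 1 with quantile normalization, no detection filter or slide as a random block, 44 with the percentile of all mouse probes, 0 with normexp, the authors' table, slide as a block or only the groups compared, 4 with the total signal and 38 with the 3 arrays that stood apart left out, and ran from 0 to 36 with 1 array left out. For lithium plus MDI against lithium it was 0, and 7 with quantile normalization, 1 with no scaling, the authors' table or only the groups compared, 9 with the mean of all probes, 5 with the dimmest probe, 4 with the total signal or a trended robust fit, 10 with slide as a block, 3 with slide as a random block, 16 with the replicate block, 88 with the 3 arrays that stood apart left out and 15 with slide 2 alone, and ran from 0 to 38 with 1 array left out. For the interaction it was 0, and 2 with quantile normalization, 20 with the percentile of all mouse probes, 61 with no scaling, 7 with the mean of all probes or the total signal, 5 with the authors' table, 4 with slide as a block, slide as a random block or the replicate block and 69 with the 3 arrays that stood apart left out, and ran from 0 to 26 with 1 array left out. For the F test over the 4 groups it was 10, and 16 with quantile normalization, 66 with the percentile of all mouse probes, 63 with no scaling, 0 with normexp or no floor, 4 with the dimmest probe or only miRNAs detected on all arrays, 1 with the authors' table or no detection filter, 6 with slide as a block, 2 with slide as a random block and 104 with the 3 arrays that stood apart left out, and ran from 0 to 38 with 1 array left out. For lithium plus MDI against MDI limma called 0 under every alternative, and 6 at an unadjusted p under 0.05 as scaled in the report.

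Among within-array differences, the adjusted exact permutation p of miR-24 minus the mean of the other 4 was 0.0123 with quantile normalization, 0.0198 with the mean of all probes, 0.00682 with the dimmest probe and 0.0297 with the total signal. That of miR-27b minus miR-27a was 0.00926 without the 3 arrays, an alternative chosen after seeing the data. For miR-27a minus miR-23a it was 0.116 with normexp and 0.0516 in the authors' table, and for miR-27b minus miR-23b 0.892 and 0.0674. With 1 array left out it ran from 0.0343 to 0.127 for miR-27a minus miR-23a, 0.00260 to 0.117 for miR-27b minus miR-23b and 0.0383 to 0.664 for miR-27b minus miR-27a.

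Whether the replicate numbers of the labels pair the arrays could not be decided, and the fit of the report did not use them. Over 18 same-numbered pairs the correlation of deviations from the group means ran from -0.482 to 0.473 and exceeded 0.1 in 9. Its mean was 0.061, against -0.041 for pairs of unlike number, and 4 of 12 arrays correlated best with their own number. With the number as a replicate block, miR-27a in lithium plus MDI against preadipocytes had an adjusted p of 0.0252, miR-23a, miR-24 and miR-27b in lithium plus MDI against lithium reached 0.0449, and the call of no other guide changed in these comparisons.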
